A study of Mus musculus with 8 samples.

Results

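Of 1981 cells kept from the E13.5 (embryonic day) thymus library, 72 (3.63%, exact 95% binomial interval 2.85 to 4.56%) were chosen by their RNA of the transcription factor genes Hhex, Nkx2-1 and Pax8 and are called Hhex/Nkx2-1 cells here. The choice used measured counts: the unique molecular identifiers (UMIs, each counting 1 captured RNA molecule) of these 3 genes had to sum to 2 or more in a cell and those of the parathyroid genes Gcm2, Chga and Casr to fewer than 3. Only cells with at most 5% mitochondrial UMIs and at most 5000 detected genes were considered. The levels of Hhex, Nkx2-1 and Pax8 therefore describe the choice and are not a result.

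The study profiled sorted mouse thymic epithelial cells (TEC), the stromal cells that attract and instruct developing T cells, by droplet single-cell RNA sequencing (10x Chromium, v2 chemistry). The 8 libraries used here held 25750 cells under the same limits. The E13.5 library came from wild-type C57 B6 (CD45.2) thymus sorted for live EpCAM+ CD45- cells, that is, total TEC of either lineage, with no transgene or treatment. The other libraries used here were also from wild-type mice. They held cortical TEC (cTEC, sorted Ly51+ UEA-1-) at E15.5, E17.5, newborn and adult, or medullary TEC (mTEC, sorted Ly51- UEA-1+) of adults. The number of embryos behind the E13.5 library was not given in the sources used here. With 1 library at this age there was no replicate, so no difference below has a test. Intervals of CPM and of shares are exact 95% intervals. Those of log2 ratios are 95% normal approximations, which are rough where a set held few UMIs of the gene. All of them cover counting error only.

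The thyroid, the parathyroids and the thymus all arise from the endoderm of the embryonic pharynx, and their rudiments lie close together when they separate from it. Hhex, Nkx2-1, Pax8 and Foxe1 are the transcription factors that together specify the thyroid follicular cell, which takes up iodide, couples it to thyroglobulin and releases thyroid hormone. Calcitonin-producing C cells reach the thyroid through the ultimobranchial body, a derivative of the most posterior pouch whose cells also use Nkx2-1. Thymic fate, in contrast, depends on Foxn1, with Pax1, Pax9 and Eya1 acting earlier in the third pharyngeal pouch.

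The Hhex/Nkx2-1 cells held between 3 and 39 UMIs of the 3 genes, with a median of 13. Of the cells outside, 1875 held 0, 33 held 1 and none held 2, and 1 further cell with 3 Hhex UMIs was left out for its parathyroid genes. The 33 cells just outside carried 19 Hhex, 9 Nkx2-1 and 5 Pax8 UMIs in all, no UMI of the thyroid gene Iyd and 2 of Prlr, and they held the thymic genes Foxn1 at 70.5 CPM (UMIs of the gene per 1000000 UMIs of the pooled cells) and Psmb11 at 243 CPM. The 7 cells just inside, with sums of 3 to 5, carried Prlr in 7 and Iyd in 2, and no UMI of Foxn1 or Psmb11. They held 30487 UMIs in all, where a count of 0 allows up to 98.4 CPM (3 counts). A difference in Foxn1 from the 33 cells was therefore not detectable. No cell of the library sat at the threshold itself.

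**Figure D1:**
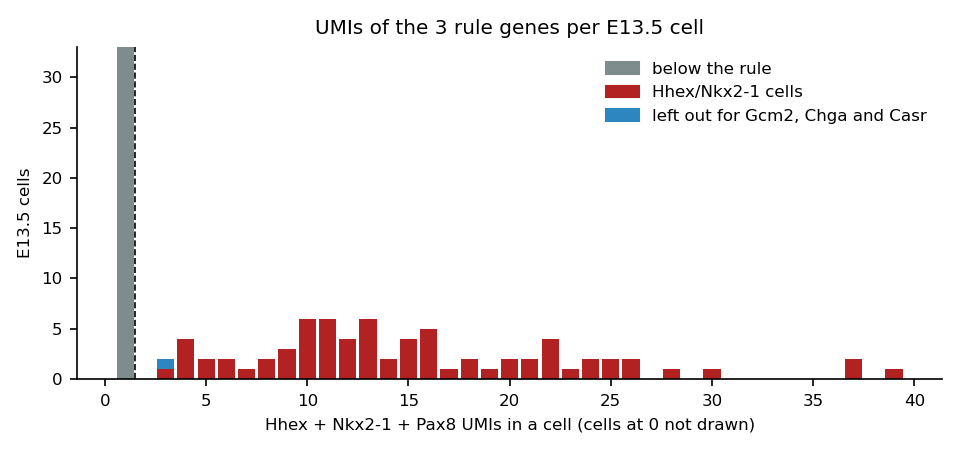
Number of E13.5 cells (y axis) by the summed UMIs of Hhex, Nkx2-1 and Pax8 in a cell (x axis), with the 1875 cells at 0 not drawn and the threshold as a dashed line. The 33 cells at 1 and the 72 chosen cells at 3 to 39 lie on either side of the empty position at 2.

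Hhex, a homeobox gene also needed in liver and pancreas buds, had a UMI in 71 of the 72 cells, with 0 to 23 per cell and a median of 8. Nkx2-1, the homeobox factor that activates thyroid and lung genes, had one in 64 cells, with 0 to 17 and a median of 4. Pax8, the paired-box factor of the follicular lineage, had one in 54 cells, with 0 to 6 and a median of 1.5. All 3 genes were seen together in 51 cells, Hhex with Nkx2-1 in 12, Hhex with Pax8 in 3, Hhex alone in 5 and Nkx2-1 alone in 1. Among the 1909 other E13.5 cells the same genes had a UMI in 20, 9 and 5 cells. Summed over cells, Hhex was at 1218 CPM (1126 to 1317) in the Hhex/Nkx2-1 cells and 1.51 CPM in the others, Nkx2-1 at 629 CPM and 0.616 CPM, and Pax8 at 251 CPM and 0.342 CPM.

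Depth was close in both sets. The Hhex/Nkx2-1 cells had 2212 to 15832 UMIs per cell with a median of 6532.5, and the other cells had 1849 to 22334 with a median of 7051. Median detected genes were 2519.5 and 2616, and the median mitochondrial share was 1.30% and 1.41%. The pooled Hhex/Nkx2-1 cells gave 522803 UMIs, so that a count of 0 allowed a level of up to 5.74 CPM (3 counts), against 0.205 CPM in the pooled others. A doublet caller marked 7 of the 1981 cells (0.353%) and none of the 72, and how well it worked on this library was not tested.

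The Hhex/Nkx2-1 cells also lay together when the genes of the choice were left out. Each cell's 20 nearest neighbors were found over 2000 variable genes without Hhex, Nkx2-1, Pax8, Gcm2, Chga and Casr. A mean of 92.1% of the neighbors of a Hhex/Nkx2-1 cell were Hhex/Nkx2-1 cells (median 20 of 20, range 3 to 20), and 68 of the 72 had a majority of them. Of the 1909 other cells, 1907 had none among their neighbors, and so had all 33 cells with a single UMI.

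The start regions of the rule genes and of Iyd, Prlr and Irs4 are shown because RNA of these genes was high in the cells. Iyd, Prlr and Irs4 were picked after their values and windows were seen, and Irs4 had the lowest ratio of the 14 genes described next. Each is the RefSeq promoter window of assembly GRCm38.p6, 250 bases before to 50 bases after the annotated start, printed 5′ to 3′ on the gene's strand. Capitals mark CTCAAG or its reverse complement CTTGAG, the core that Nkx2-1 binds; GTCACGC with its reverse complement GCGTGAC, from the sequence that Pax8 binds, was also searched on both strands, and these motifs do not overlap each other. The windows are Hhex at chr19:37434591-37434890 (plus strand), Nkx2-1 at chr12:56536859-56537158 (minus), Pax8 at chr2:24475550-24475849 (minus), Iyd at chr10:3540024-3540323 (plus), Prlr at chr15:10176988-10177287 (plus, the first of 3 windows listed) and Irs4 at chrX:141725168-141725467 (minus).
Hhex: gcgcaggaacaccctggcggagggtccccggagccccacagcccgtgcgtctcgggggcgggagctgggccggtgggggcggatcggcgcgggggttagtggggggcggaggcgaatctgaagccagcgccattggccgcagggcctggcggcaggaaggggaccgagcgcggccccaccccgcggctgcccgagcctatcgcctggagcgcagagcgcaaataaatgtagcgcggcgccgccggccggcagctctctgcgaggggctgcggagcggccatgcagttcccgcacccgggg
Nkx2-1: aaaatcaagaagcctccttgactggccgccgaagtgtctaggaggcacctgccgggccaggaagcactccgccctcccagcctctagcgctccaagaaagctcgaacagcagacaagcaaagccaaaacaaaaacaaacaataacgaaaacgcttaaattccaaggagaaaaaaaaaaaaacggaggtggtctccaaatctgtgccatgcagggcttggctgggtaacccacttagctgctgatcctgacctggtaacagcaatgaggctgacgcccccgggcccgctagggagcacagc
Pax8: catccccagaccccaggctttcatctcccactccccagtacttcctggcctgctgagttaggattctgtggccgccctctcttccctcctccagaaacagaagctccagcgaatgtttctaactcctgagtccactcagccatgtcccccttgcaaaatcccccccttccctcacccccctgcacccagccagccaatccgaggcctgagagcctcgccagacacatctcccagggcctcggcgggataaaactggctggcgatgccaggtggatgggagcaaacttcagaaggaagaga
Iyd: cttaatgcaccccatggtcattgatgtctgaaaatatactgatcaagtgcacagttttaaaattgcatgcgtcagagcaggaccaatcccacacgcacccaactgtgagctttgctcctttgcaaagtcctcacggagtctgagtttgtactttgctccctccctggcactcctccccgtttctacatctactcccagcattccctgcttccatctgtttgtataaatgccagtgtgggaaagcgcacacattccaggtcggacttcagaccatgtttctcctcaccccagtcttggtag
Prlr: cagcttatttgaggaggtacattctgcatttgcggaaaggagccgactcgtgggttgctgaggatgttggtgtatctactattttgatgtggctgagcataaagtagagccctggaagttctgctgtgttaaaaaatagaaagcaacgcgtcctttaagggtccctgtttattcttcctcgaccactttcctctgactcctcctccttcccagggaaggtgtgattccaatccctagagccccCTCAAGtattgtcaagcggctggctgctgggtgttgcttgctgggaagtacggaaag
Irs4: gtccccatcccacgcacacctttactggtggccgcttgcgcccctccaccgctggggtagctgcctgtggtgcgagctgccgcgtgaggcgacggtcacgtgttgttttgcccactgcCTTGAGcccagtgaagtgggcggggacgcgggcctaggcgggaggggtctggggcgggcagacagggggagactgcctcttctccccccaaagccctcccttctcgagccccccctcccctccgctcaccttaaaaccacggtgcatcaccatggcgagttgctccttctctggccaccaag

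Among these windows Prlr and Irs4 held CTCAAG once each, Irs4 on the opposite strand, and Hhex, Nkx2-1, Pax8 and Iyd held neither motif. Of the 14 genes with the highest ratio described next, 11 had a window, and 3 of these, Prlr, Mt2 and Irs4, held CTCAAG and 0 held GTCACGC. Over all 32544 windows of the table, 5115 (15.7%) held CTCAAG and 684 (2.10%) held GTCACGC. A match describes letters in a window and is not a binding site. The windows also differed in base composition: the Hhex window was 75.7% G or C with 37 CpG pairs and the Irs4 window 67% with 19, against a median of 53% and 7 pairs over all windows.

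Iyd and 3 further genes of the thyroid follicular list were seen in the Hhex/Nkx2-1 cells and in at most 1 other E13.5 cell each. UMIs were summed over the 72 cells and over the 1909 other cells, and a gene was compared where it had at least 10 CPM in either set and called where the ratio of CPM + 10 was 2-fold or more. The log2 ratios below are on this scale, which understates the difference of genes with low values. Of 8972 genes compared, 412 (4.59%) were higher and 605 (6.74%) lower in the Hhex/Nkx2-1 cells, with a median log2 ratio of 0.05 over all compared genes. A gene under 10 CPM in 1 set was compared only through the other, which fixed its direction, and of the called genes 171 of the 412 and 202 of the 605 had 10 CPM or more in both sets, 2.41% and 2.84% of the 7109 such genes. Of 15 thyroid follicular genes, 7 had a UMI in the Hhex/Nkx2-1 cells and 8 had none. Of the 5 compared, 4 were higher (Iyd, Foxe1, Slc26a7 and Duoxa2) and 1 was lower (Duoxa1), with a median log2 ratio of 1.53. The 4 reached 10 CPM through the Hhex/Nkx2-1 cells alone, so that their direction was fixed, and the median was -0.020 over all genes of the list.

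Iyd, at chr10:3540240-3554877 (plus strand, mm10), encodes the deiodinase that salvages iodide from unused iodotyrosines. It had 100 UMIs in 33 of 72 Hhex/Nkx2-1 cells and 1 UMI in the 1909 others, or 191 CPM (156 to 233) and 0.0685 CPM (log2 ratio 4.32, 4.05 to 4.59). Foxe1, at chr4:46343609-46346412 (plus strand), the forkhead factor of the thyroid bud, had 12 UMIs in 11 cells against 1 UMI in the others (23 CPM, 11.9 to 40.1, against 0.0685 CPM). Slc26a7, an anion transporter of follicular cells, had 10 UMIs in 10 cells against 1 (19.1 CPM, 9.17 to 35.2). Duoxa2, a maturation factor for the oxidase that makes hydrogen peroxide for iodination, had 9 UMIs in 9 cells and none elsewhere. Iyd was thus seen in 33 cells and each of the other 3 genes in 9 to 11 cells, against at most 1 cell in the rest of the library.

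The other genes of the list were at or near 0. Cdh16, a cadherin that Pax8 activates in thyroid, had 5 UMIs (9.56 CPM, 3.11 to 22.3), Tshr, the thyrotropin receptor, had 3 (5.74 CPM, 1.18 to 16.8), and Tg, the thyroglobulin that carries the hormone, had 1 (1.91 CPM, against 4 UMIs in the others). The iodide symporter Slc5a5, the oxidases Duox1 and Duox2, Slc26a4, Slc5a8, Dio1, Glis3 and Duoxa1 had none, which allows up to 5.74 CPM. Duoxa1, the partner of Duox1, was at 20.1 CPM in the other E13.5 cells. Over the whole list, a UMI was seen in 47 of 72 Hhex/Nkx2-1 cells and in 319 of 1909 others, with sums of 268 and 28.9 CPM. Hhex, Nkx2-1 and Pax8 chose the cells and say nothing of the label "thyroid-like". Outside them the label rested on this list, with Iyd in 33 and Foxe1 in 11 of 72 cells and 8 of its 15 genes at 0, so the cells are called by their rule genes here.

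Other high genes included a transcription factor and a hormone receptor. Tbx3, a T-box repressor, was at 130 CPM (101 to 165) against 0.959 CPM, with a UMI in 39 of 72 cells against 11 of 1909 (log2 ratio 3.68). Prlr, the prolactin receptor, at chr15:10177238-10349180, was at 319 CPM (273 to 372) against 6.16 CPM, with a UMI in 56 cells against 71 (4.35). Prlr was also carried by the 138 other cells with 3 or more UMIs of Gcm2, Chga and Casr, called parathyroid-like here, at 64.0 CPM, and was at 3.03 CPM in the 1771 remaining cells. When each cell was thinned to 3000 UMIs, which left out 2 and 56 shallower cells, Prlr was seen in 58.6% of Hhex/Nkx2-1 cells and 1.89% of others, and Iyd in 32.9% and 0%.

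A pair of high transcripts lay beside genes of the thyroid factors. Gm12446, at chr4:46300007-46345515 on the minus strand, had the highest ratio after the rule genes (239 CPM, 199 to 285, against 0.342 CPM, log2 ratio 4.59) and a UMI in 50 of 72 cells. It is annotated antisense and overlaps Foxe1 by 1907 bases. The study counted with Cell Ranger at its default settings, which assign reads by strand. Mbip, at chr12:56328303-56345894 on the minus strand, lies 186 kb from Nkx2-1 and was at 245 CPM (204 to 291) against 20.4 CPM (3.07), with a UMI in 54 cells. Mbip was picked after its value was seen.

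The remaining genes among the 14 highest were of mixed function. Sst and Scg2 came from a minority of the cells and are described with them below. Mest, an imprinted growth gene, was at 207 CPM against 6.30 CPM (3.73), with 56 UMIs in 9 cells described below and 39 in 60 others. Col25a1, a membrane collagen, was at 184 against 5.96 CPM (3.60) and Foxp2, a forkhead repressor, at 115 against 3.08 CPM (3.25). Phlda2, an imprinted growth restrainer, was at 99.5 against 1.51 CPM (3.25). Sall1, a zinc finger factor of the kidney and limb buds, had 43 UMIs in 30 cells against 1 UMI in the others, or 82.2 CPM (59.5 to 111). The metallothionein Mt2 was at 453 against 41.1 CPM (3.18), the membrane protein gene Pmp22 at 86.1 against 1.37 CPM (3.08), and Irs4, an adaptor of insulin and IGF1 receptor signaling, at 218 against 17.2 CPM (3.07). Against the remaining cells alone, 5.02% of 8942 compared genes were higher and 6.71% lower, and all 14 were still called. Of the 14, 12 were still called when the cells without a Pax8 UMI were left out.

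**Figure D2:**
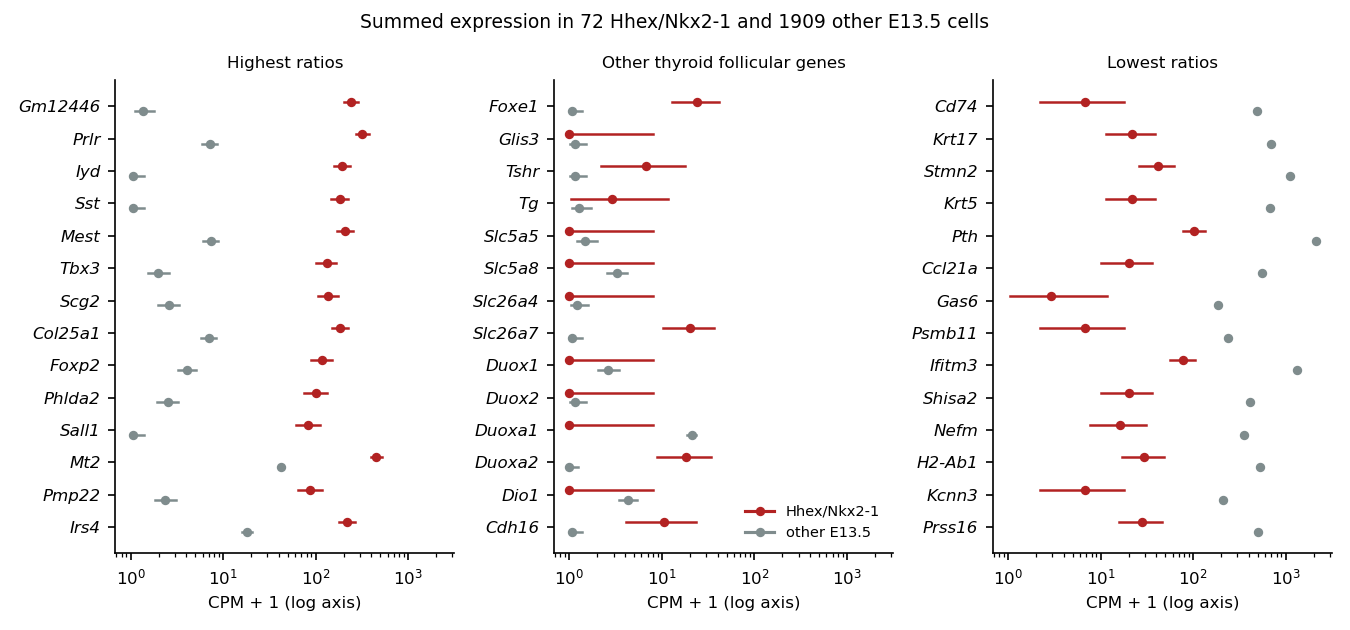
Summed expression as CPM + 1 on a log axis in the 72 Hhex/Nkx2-1 cells (red) and the 1909 other E13.5 cells (gray), with exact 95% Poisson intervals, for 14 genes with the highest ratios, the other 14 thyroid follicular genes and 14 genes with the lowest ratios. Iyd reaches 191 CPM and Foxe1 23 CPM, most of the hormone-making enzymes sit at 0, and Psmb11 is at 5.74 against 238 CPM.

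Among 12 imprinted growth genes, 6 of the 11 compared were higher, none was lower and the median log2 ratio was 1.05. Of the 6, 5 had 10 CPM or more in both sets, and the direction of the other was fixed by the minimum. Meg3, a long non-coding RNA of the Dlk1 locus, was at 1109 CPM (1021 to 1203) against 252 CPM, and Dlk1 itself, a secreted Notch ligand homolog, at 149 against 13.8 CPM. Cdkn1c, which restrains the cell cycle, was at 643 against 254 CPM, and Ndn and Igf2r were also among the higher genes. Igf2 and H19 were at 82.2 and 321 CPM against 93.0 and 344 CPM, within the counting intervals of each other. Both were uneven within the set: 9 cells described below held them at 305 and 1574 CPM and 60 others at 56.3 and 199 CPM.

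Of 21 transcription factors of foregut endoderm, 12 had no UMI in the Hhex/Nkx2-1 cells. Of the 7 compared, 3 were higher (Tbx3, Foxa2 and Nkx2-3), 1 lower (Irx3) and the median log2 ratio was 0.59, or -0.040 over all genes of the list. Each of these 4 genes reached 10 CPM in 1 set alone, which fixed its direction. Without the 18 cells lacking a Pax8 UMI, the log2 ratio of Foxa2 went from 2.15 to 0.55, no longer called, and the median was 0.21. Foxa2, a pioneer factor of endoderm, had 18 UMIs in 9 cells and none in 1909 others, and Nkx2-3, a pharyngeal homeobox gene, had 9 UMIs in 7 cells against 2 UMIs. Isl1 was at 138 and 142 CPM, within its counting error. Of 9 lung and airway genes, which Nkx2-1 also controls elsewhere in the foregut, 6 had no UMI and the 2 compared were not called (median -0.18). Sftpb had 2 UMIs and Sftpc had none.

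The transcription factors of the thymus and of the third pouch were low. Of 10 on the list, 8 were compared, 7 were lower and none was higher, with a median log2 ratio of -1.84. Foxn1, the factor that drives TEC differentiation, had 1 UMI in 1 of 72 cells and UMIs in 808 of 1909 others (1.91 against 89.1 CPM, log2 ratio -3.06, -3.52 to -2.60). Pax1 had 4 UMIs, at 7.65 against 228 CPM (-3.76). Trp63, needed for stratified epithelia, was at 1.91 against 96.9 CPM. Pax9 and Eya1 were at 34.4 CPM each against 161 and 97.0 CPM. Of the 18 Pax9 UMIs, 16 fell in 9 cells described below (406 CPM), and without the 18 cells lacking a Pax8 UMI the list median was -2.78. The parathyroid-like cells held Pax1 at 112 CPM and Pax9 at 281 CPM.

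Hox genes, which give positional identity along the pharynx, summed to 101 CPM in the Hhex/Nkx2-1 cells and 94.1 CPM in the others. A UMI of the list was seen in 40.3% and 45.2% of the cells. Of 14 genes, 7 had no UMI and 6 were compared, of which Hoxc4 was higher and Hoxa2 and Hoxa3 were lower (median log2 ratio 0.83), each with its direction fixed by reaching 10 CPM in 1 set alone. Without the 18 cells lacking a Pax8 UMI, Hoxc4 was not called (-0.11) and the median was -0.57, and over all genes of the list the median was 0.17. Hoxa3, the gene of the third pouch, had none in the Hhex/Nkx2-1 cells against 21.5 CPM in the others and 24.0 CPM in the parathyroid-like cells. Hoxb2, Hoxb3 and Hoxb4 were at 36.3, 19.1 and 15.3 CPM against 14.9, 6.85 and 3.83 CPM, each under the limit for a call.

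The products that TEC use to attract, nourish and select T cells were low as well. Of 11 thymocyte ligands, 8 were compared, 6 were lower and none was higher (median log2 ratio -2.30). The chemokine Ccl25 was at 36.3 against 616 CPM (-3.76), the cytokine Il7 at 11.5 against 265 CPM (-3.68), the Kit ligand Kitl at 1.91 against 72.0 CPM, and the Notch ligand Dll4 had no UMI against 20.3 CPM. Cxcl12 was at 91.8 against 145 CPM and was not called. Of 9 cortical genes, 7 were compared and 6 were lower (median -2.44), among them the thymoproteasome subunit Psmb11 at 5.74 against 238 CPM (-3.98, -4.57 to -3.38) and the serine protease Prss16 at 26.8 against 499 CPM. The exception was Scx, a bHLH factor best known from tendon, at 68.9 against 21.5 CPM (1.32). Of 12 medullary genes, 8 were compared, 6 were lower and the claudin Cldn3 was higher (median -1.76). The lower genes with 10 CPM or more in both sets were 4 of the 7 pouch and thymus factors, 3 of the 6 ligands, 2 of the 6 cortical and 3 of the 6 medullary genes, and the direction of the others was fixed by the minimum. Among the 14 lowest ratios outside these lists were the neuronal cytoskeleton genes Stmn2 (40.2 against 1105 CPM) and Nefm (15.3 against 353 CPM), the growth arrest ligand Gas6 (1.91 against 182 CPM) and the interferon-induced gene Ifitm3 (76.5 against 1310 CPM).

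Antigen presentation genes were also lower for the most part. Of 16 genes, 12 were compared and 9 were lower with none higher (median log2 ratio -1.85), 4 of the 9 with 10 CPM or more in both sets. Cd74, the invariant chain of MHC class II, was the lowest of all named genes, at 5.74 against 485 CPM (-4.97, -5.57 to -4.38), and H2-Ab1, a class II chain, was at 28.7 against 532 CPM (-3.81). Class I was less low, with H2-K1 at 11.5 against 49.4 CPM and B2m at 89.9 against 130 CPM, the latter not called. Psmb9 and Psmb10, subunits of the immunoproteasome, were at 1.91 and 40.2 CPM against 46.0 and 246 CPM.

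Surface and junction genes of epithelia were seen in the Hhex/Nkx2-1 cells. All 16 epithelial genes had a UMI, and of the 15 compared 4 were higher and 3, the keratins Krt8, Krt18 and Krt19, lower (median log2 ratio 0.42). Summed, the list was at 3458 CPM against 5961 CPM in the others. Epcam, the gene of the protein used in the sort, was at 1046 CPM (960 to 1138) against 835 CPM and was seen in 70 of 72 cells. The tight junction claudins Cldn6, Cldn7 and Cldn3 were at 392 (340 to 450), 231 and 164 CPM against 99.0, 56.1 and 32.9 CPM. Keratins differed the other way: of 14, 9 were compared and 6 were lower, with Krt7, a keratin of simple glandular epithelia, higher (45.9 against 9.24 CPM). Krt8 and Krt18 were at 346 and 551 CPM against 1775 and 2555 CPM, and Krt5 and Krt17, keratins of basal and medullary cells, at 21.0 CPM each against 670 and 685 CPM. Of 21 genes of the basement membrane and its receptors, 13 were compared, 1 was higher (the integrin Itga6, 99.5 against 41.2 CPM) and 4 were lower (median 0.25). Those with 10 CPM or more in both sets were 3 of the 4 higher and all 3 lower epithelial genes and 5 of the 6 lower keratins. Of the basement membrane genes they were Itga6 and 2 of the 4 lower. The direction of the others, Krt7 among them, was fixed by the minimum.

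An abundant RNA of other cells in the library shows the level at which such RNA was counted here. Pth, the parathyroid hormone gene, was at 40027 CPM in the parathyroid-like cells and at 101 CPM (75.9 to 133) in the Hhex/Nkx2-1 cells, close to the 82.5 CPM of the remaining cells. At 3000 UMIs per cell Pth was seen in 25.7% of Hhex/Nkx2-1 cells and in 26.6% of all others. Its log2 ratio of -4.27 against all other cells became 0.27 against the remaining cells, and the 82.5 CPM of those cells lay within its counting interval. Of the 4 genes of the parathyroid list, 2 were compared and both were lower (Pth and Gata3, median -2.79, or 0.0050 against the remaining cells, where neither was called). The medullary chemokine Ccl21a, at 7850 CPM in the parathyroid-like cells, was at 19.1 CPM in the Hhex/Nkx2-1 cells against 155 CPM in the remaining cells (-2.50). How much of the few UMIs of Foxn1, Psmb11 or Cd74 in the Hhex/Nkx2-1 cells was free RNA was not tested.

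Of 50 signaling genes compared in 5 pathways, 7 were higher and 13 lower in the Hhex/Nkx2-1 cells. Only 3 of the 7 (Id2, Wnt5a and Nkd1) and 4 of the 13 (Bmp7, Wnt4, Hey1 and Hes6) had 10 CPM or more in both sets, of 32 such genes, and the direction of the rest was fixed by the minimum. In the BMP pathway, 11 of 16 genes were compared, and the ligand Bmp5 (53.6 against 7.60 CPM), the target Id2 (530 against 144 CPM) and the antagonist Grem1 (26.8 against 0.753 CPM) were higher while the ligand Bmp7 (19.1 against 63.6 CPM) was lower, with a median log2 ratio of 0.52. In the FGF pathway, 8 of 15 were compared, the receptor Fgfr1 was higher (36.3 against 4.93 CPM), the feedback inhibitor Spry2 lower and the median was -0.37. Fgfr2, the receptor that thymic epithelium uses, was at 45.9 against 88.3 CPM and was not called. In the Hedgehog pathway, 6 of 11 were compared, with the receptor Ptch1 higher (28.7 against 5.75 CPM) and the repressor Gli3 lower (5.74 against 49.6 CPM), and in the Wnt pathway 13 of 23, with 2 higher (Wnt5a and Nkd1) and 3 lower (Wnt4, Axin2 and Sfrp1). The medians of these lists were 0.12 and -0.06. In the Notch pathway, 12 of 15 were compared, 7 were lower and none was higher (median -1.28), among them the receptor Notch1 (1.91 against 45.4 CPM), the target Hey1 (23 against 199 CPM) and Hes6 (115 against 475 CPM).

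**Figure D3:**
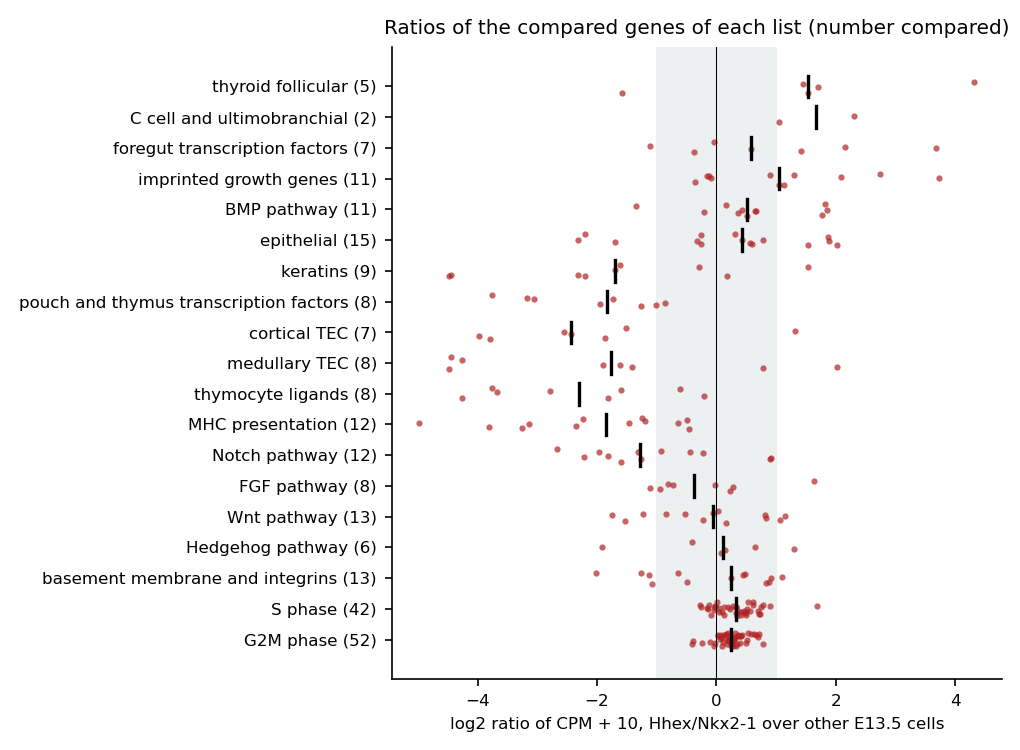
Log2 ratio of CPM + 10 in the Hhex/Nkx2-1 cells over the other E13.5 cells (x axis) for each compared gene (points) of each list (rows), with the list's median as a black bar and the range without a call shaded. Pouch and thymus transcription factors, cortical genes and thymocyte ligands lie left of the shaded range for the most part, with medians of -1.84, -2.44 and -2.30.

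Cell cycle genes were carried at a slightly higher share. The 42 S phase genes took 0.484% (0.466 to 0.504) of the UMIs of the Hhex/Nkx2-1 cells and 0.366% (0.363 to 0.369) of those of the others, and the 52 G2/M phase genes took 1.08% (1.06 to 1.11) and 0.889% (0.884 to 0.894). At 3000 UMIs per cell, over 70 and 1853 cells deep enough, the median cell held 13 and 9 S phase UMIs and 26.5 and 19 G2/M UMIs. Of these genes only Cdca7 was called (279 against 80.1 CPM), and the list medians were 0.33 and 0.25. Top2a, the mitotic topoisomerase, was seen in 62.9% and 46.7% of thinned cells. The shares of ribosomal protein RNA were 24.5% and 25.5%, and none of its 79 compared genes was called.

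Of the Myc family, Mycn alone had more than 1 UMI in the Hhex/Nkx2-1 cells. Myc had 1 UMI in the Hhex/Nkx2-1 cells (1.91 CPM, 0.0484 to 10.7, against 15.9 CPM in the others, log2 ratio -1.12, -1.59 to -0.65). Mycl had none, against 20.5 CPM. Mycn, the family member of many embryonic progenitors, had 28 UMIs in 19 cells, or 53.6 CPM (35.6 to 77.4) against 4.24 CPM (2.16, 1.69 to 2.62). The G1 cyclin Ccnd1 was at 134 against 32.2 CPM. Of the 14 cyclins, inhibitors and Myc genes on that list, 12 were compared, 3 were higher (Mycn, Ccnd1 and Cdkn1c) and 2 lower (Myc and Mycl), with a median log2 ratio of -0.093. The 3 Myc genes reached 10 CPM in 1 set alone, which fixed their direction. In the parathyroid-like cells Myc, Mycn and Mycl were at 1.33, 2.67 and 4 CPM.

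Markers of other cell types that the sort could have let through were low, but not all were below their level in the other E13.5 cells. Of 6 myeloid genes none had a UMI, of 8 thymocyte genes only Lck had one (17.2 against 5.96 CPM) with Ptprc and the Cd3 genes at 0, and of 6 endothelial genes Pecam1 and Cldn5 had 5 and 1. The 12 mesenchymal genes summed to 49.7 CPM against 98.7 CPM with Col1a1 and Pdgfra at 0, the 6 neural crest genes to 34.4 against 14.2 CPM with Sox10 at 0, and the 9 erythroid genes to 45.9 against 44.4 CPM. A UMI of the neural crest list was seen in 19.4% of the Hhex/Nkx2-1 cells and 9.74% of the others, of the thymocyte list in 11.1% and 4.61%, of the endothelial list in 8.33% and 3.93%, of the erythroid list in 29.2% and 28.5%, and of the mesenchymal list in 25% and 30.4%. The part of these cell types in the results was not tested. Of 14 immediate early and stress genes, 11 were compared, 2 were higher (Jun and Jund) and 2 lower (Junb and Egr1), with a median log2 ratio of 0.13. Without the cells lacking a Pax8 UMI, Jun (0.93) and Egr1 (-0.92) were not called.

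The Hhex/Nkx2-1 cells were not uniform. The 54 cells with a Pax8 UMI and the 18 without one differed in depth, with medians of 7590.5 and 4776 UMIs, so a cell without a UMI cannot be read as one without the gene. Their other genes differed nonetheless. Sst, which encodes the hormone somatostatin, had 95 UMIs in the 18 cells and 0 in the 54. Scg2, a granin of secretory vesicles, had 71 and 0, and Calca, the calcitonin gene, had 28 and 0. The 54 cells held 428386 UMIs and the 18 held 94417, so a count of 0 in the 54 allows up to 7 CPM, while the 18 held Sst at 1006 CPM and Calca at 297 CPM. This division and these 3 genes were chosen after the values were seen.

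In the other direction, Iyd had 95 UMIs in the cells with Pax8 and 5 in those without (222 and 53.0 CPM), Prlr 157 and 10 (366 and 106 CPM), and Mycn 28 and 0. Foxe1 had 12 and 0, a difference that was not detectable at this depth, since a count of 0 in the 18 cells allows up to 31.8 CPM. Tbx3 was at 128 and 138 CPM, so it was carried on both sides. Of the 6 genes of the C cell and ultimobranchial list, 2 were compared (Calca and Scg3, median log2 ratio 1.68). Both reached 10 CPM through the Hhex/Nkx2-1 cells alone, so that their direction was fixed, and the median over all genes of the list was 0.34. All 39 UMIs of this list fell in 9 cells without Pax8. All UMIs of Hoxc4 (9) and Hoxb4 (8) also fell in cells without Pax8. Pax9, low in the whole set, had 17 UMIs in the cells without Pax8 and 1 in those with it, and Foxa2 had 16 and 2.

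Cell by cell these genes did not mix. Of the 72 cells, 60 had a UMI of Iyd or Prlr, 9 had one of Sst, Scg2 or Calca, 3 had neither and 0 had both. All 54 cells with Pax8 were among the 60. The 18 without it comprised 6 of the 60, the 9 and the 3. Of the 9 cells, 8 had 2 or more of the 3 genes, against 0 of the 1909 other E13.5 cells, of which 55 had at least 1, and Iyd or Prlr was seen in 72 of these others.

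In the 9 cells Sst ran from 0 to 30 UMIs per cell with a median of 10, and was seen in 8. Scg2 ran from 0 to 26 and was seen in 6, and Calca ran from 0 to 8 and was seen in 8. Of the genes that chose the cells, Hhex had 8 to 23 UMIs in each, Nkx2-1 was seen in 5 and Pax8 in none, and 4 of the 9 had met the rule through Hhex alone. Iyd and Prlr were seen in none of the 9. Foxe1 and Mycn were also at 0, but at 26.0 and 60.6 CPM in the 60 they lay under the 76.2 CPM that a count of 0 in the 9 allows, so no difference was detectable.

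Some imprinted genes were higher in the 9 cells than in the 60 and others were not. Mest was seen in 9 of 9, at 1 to 14 UMIs, and summed to 1422 CPM against 84.5 CPM in the 60, and Nnat, an imprinted gene of neuroendocrine cells, in 9 of 9 at 1 to 24 UMIs (1955 against 128 CPM). H19 was at 1574 against 199 CPM, whereas Meg3 was at 660 against 1163 CPM and Cdkn1c at 609 against 643 CPM. The synaptic gene Cplx2 was at 762 against 62.8 CPM, and Epcam at 2057 against 964 CPM. Nnat and Cplx2 were picked after their values were seen. Pax9 was seen in 8 of the 9, Foxa2 in 6 and Isl1 in 9. The 9 cells held 39385 UMIs in all.

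Cell cycle genes differed between them too. Top2a was seen in 48 of the 60 cells and in 1 of the 9, and Mki67 in 39 and 1. G2/M genes took 1.16% of the UMIs of the 60 and 0.373% (0.315 to 0.439) of those of the 9, where 113 of the 147 G2/M UMIs were in 1 cell and the median cell had 5, against 81 in the 60. S phase genes took 0.516% and 0.129% (0.0964 to 0.170). The 9 cells were shallower, with 2808 to 6512 UMIs and a median of 4397 against 7065, and their ribosomal share was 18.7% against 25%. Among the nearest neighbors, cells with Pax8 had 15 to 20 Hhex/Nkx2-1 cells of 20 and the 9 had 4 to 13. The 9 are too few to fill 20 neighbors with their own kind, so group size limited their count. A mean of 35% of their neighbors were from the 9.

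**Figure D4:**
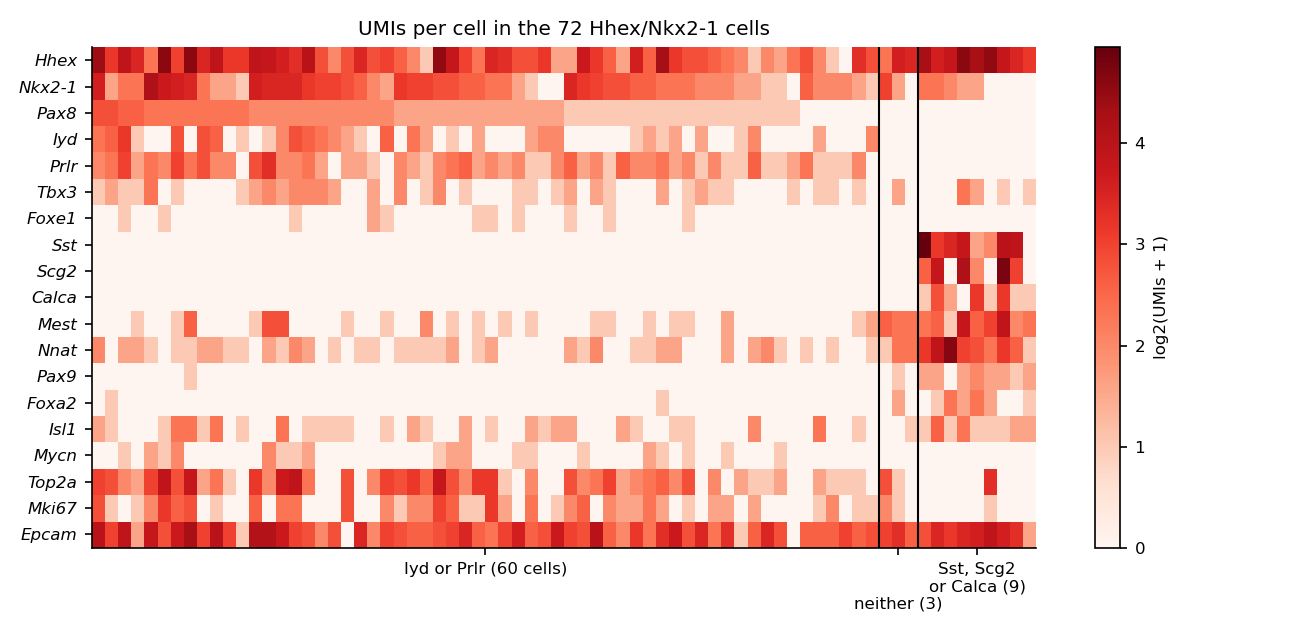
UMIs per cell as log2(UMIs + 1) for 19 genes (rows) in each of the 72 Hhex/Nkx2-1 cells (columns), divided by vertical lines into 60 cells with Iyd or Prlr, 3 with neither and 9 with Sst, Scg2 or Calca. Sst, Scg2 and Calca are at 0 throughout the 60, and Pax8, Iyd and Prlr are at 0 throughout the 9, while Hhex runs through both.

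Of the 60 cells with Iyd or Prlr, 33 had Iyd, and the other 27 had Prlr without Iyd. Prlr is not on the thyroid list and was also carried by the parathyroid-like cells. The 9 are given no name here. The 5 cells with Hhex alone were compared with the other 67 by the same ratio. The highest ratios were those of Aplp1, an amyloid precursor-like gene of neurons, with 9 UMIs in the 5 cells and 3 in the 67, the Hox gene Hoxb7 with 5 and 0, the neuropeptide gene Pnoc with 4 and 0, Scg2 with 33 (26 of them in 1 cell, and 3 of the 5 cells at 0) and 38, and Nwd2 with 4 and 1. The lowest were those of Bex4, Gm42418, Prlr, Odc1 and Chchd10, which had no UMI in the 5 cells and 143 to 189 UMIs in the 67 (286 to 377 CPM). The 5 cells held 22017 UMIs, where a count of 0 allows up to 136 CPM, so each of these 5 genes lay above that limit in the 67 cells.

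Cells that met the same rule were rare or absent in the other libraries. None was found in 3571 E15.5 cTEC (exact upper limit 0.103%) or in 3605 newborn cTEC (0.102%). The 507 and 535 adult cTEC also held none (up to 0.725% and 0.687%), and 1 was found in 8350 E17.5 cTEC (0.0120%). These cTEC were sorted for the cortical marker Ly51, which the E13.5 cells were not. Per the paper's methods, newborn and adult thymi were also digested with another enzyme than embryonic ones and enriched on Percoll. The E17.5 sample belonged to a separately captured data set. Age, gate, preparation and capture cannot be told apart. Adult mTEC held 8 of 1586 cells (0.504%, 0.218 to 0.991) and 26 of 5615 (0.463%, 0.303 to 0.678) in its libraries.

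The adult mTEC cells met the rule in another way. Only 1 cell in each adult mTEC library had UMIs of 2 or more of the 3 genes, against 66 of the 72 at E13.5, and the highest sum in a cell was 6 and 11 UMIs against 39. Over whole libraries Calca was at 247 and 176 CPM and Sst at 25.3 and 31.0 CPM in adult mTEC, a population known to express many tissue-restricted genes, against 4.56 and 6.35 CPM at E13.5. Of the E13.5 barcodes, 1 to 22 also occurred in each other library. Of the 72, 1 occurred in E17.5 cTEC and 3 in the second adult mTEC library.

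**Figure D5:**
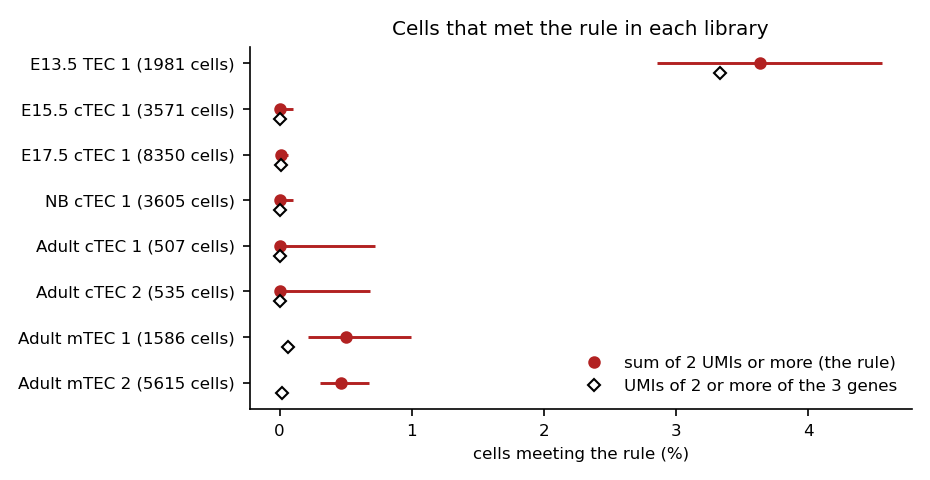
Share of cells (%, x axis) that met the rule in each of the 8 libraries (rows, with cells counted), as red points with exact 95% binomial intervals, and the share with UMIs of at least 2 of the 3 genes as open diamonds. The E13.5 library is at 3.63%, adult mTEC at 0.504% and 0.463%, and the cTEC libraries at 0 or 0.0120%.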

How the data were processed

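The E13.5 library and 7 other single-cell libraries were used as deposited by the authors: filtered matrices of UMI counts per gene and cell, not normalized. Per the submitters' processing notes, the authors used bcl2fastq 2.17, Cell Ranger 2.0.1, STAR 2.5.1b and mm10; the headers of 3 matrices name version 3.0.1. The label for growth conditions speaks of bone marrow while the tissue label is thymus. Of 2002 deposited E13.5 barcodes, 1981 had at most 5% mitochondrial UMIs and at most 5000 genes, the number the study also gives; 21 were left out.

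Counts were summed over cells of a set and divided by all its UMIs (CPM). Ratios used a pseudocount of 10 CPM, a minimum of 10 CPM in either set and a 2-fold limit, checked on simulated data. Poisson and binomial (Clopper-Pearson) intervals were exact, and intervals of log2 ratios were normal approximations from the counts. Cells were thinned to 3000 UMIs where stated. Neighbors used 20 components and 20 neighbors (scanpy 1.11.5). Scrublet was run for doublets. Python 3.11.15, numpy 2.4.6, scipy 1.17.1, pandas 2.3.3 and matplotlib 3.10.9 were used. Promoter windows were from RefSeq (GRCm38.p6) and gene positions from GENCODE.

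Named genes were the members of 32 lists, the 15 highest and 15 lowest ratios among genes with at least 50 CPM in either set, and 5 each way between cells with Hhex alone and the rest; a few others are marked in the text. Some genes of these lists and ratios, 1 of the 15 each way among them, are not reported here and were left out of the list counts. The cells, the rule and the lists were chosen with earlier results of these data known.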

Additional observations from a re-analysis of the deposited data

How the results depend on the processing

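All results rest on 1 library, so counting error is the only error known, and 72 cells limit what low genes can show. Of 14 alternatives, 12 were planned and 2, without the cells with Hhex alone and without the 18 cells lacking a Pax8 UMI, were chosen after seeing the data. Over the alternatives, log2 ratios of 305 genes moved by less than their counting interval in 4121 of 4270 cases (305 each with a rule sum of 3 and with no minimum CPM, which could not change them) and changed sign in 68, in 7 of them from 2-fold or more. Medians of 29 lists moved by less in 380 of 405 cases and changed sign in 10, in 2 of them from 2-fold or more. The other 8 were the foregut (-0.040), thymocyte (-0.0098), erythroid (-0.081) and basement membrane (-0.17) medians with no minimum CPM, the basement membrane median as a mean over cells (-0.028), the Hox median without the cells lacking Pax8 (-0.57), and the Wnt median with 2 of the 3 genes (0.0051) or with Nkx2-1 and Pax8 only (0.017). Without the cells lacking Pax8, the cells were 2.75% of the library, S phase genes took 0.513%, G2/M genes 1.19% and ribosomal protein genes 24.9% of UMIs, and the log2 ratios of the genes carried by those 18 cells became Sst -0.0098, Scg2 -0.21, Aplp1 -0.60, Calca -0.36, Scg3 -0.058 and Hoxc4 -0.11, from 4.25, 3.65, 1.12, 2.31, 1.04 and 1.33; Foxa2 (0.55), Jun (0.93), Egr1 (-0.92) and Fn1 (-0.99) were no longer called. Without the parathyroid-like cells in the comparison, Pth went from -4.27 to 0.27 and the parathyroid list median from -2.79 to 0.0050. With no minimum CPM the thyroid follicular median went from 1.53 to -0.020, because genes near 0 in both sets then entered it. The share of cells with Nkx2-1 or Pax8, 93.1%, was 100% where the setting itself requires these genes or removes the cells with Hhex alone. As a mean over cells, S phase, G2/M and ribosomal shares were 0.459%, 0.956% and 24.3%; the ribosomal share was 24.6% with at least 2 of the 3 genes or without the cells with Hhex alone, and 24.7% with Nkx2-1 and Pax8 only. A pseudocount of 1 CPM called 809 genes higher and 1015 lower, against 412 and 605. Requiring UMIs of 2 of the 3 genes left 0.0631% and 0.0178% of the cells of the adult mTEC libraries. No paired analysis was possible because the E13.5 library has no replicate and no result comes from a test.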
